A study of Mus musculus with 24 samples.

Results

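Transcript levels of 30 splicing factor genes were compared between normal adrenal glands, adrenal glands with a MYCN transgene and neuroblastoma tumors of transgenic mice. The set held 20 genes of heterogeneous nuclear ribonucleoproteins (symbols that start with Hnrnp) and 10 genes of serine/arginine-rich splicing factors (SR; Srsf followed by a number), out of 21833 protein-coding genes in the table. All 30 genes passed the filter on low values that left 10171 genes for testing. Srsf12 and Hnrnpr passed it only through tumor samples, and Hnrnpll through tumors and a single normal gland. Their calls against glands are included in the counts below. RNA-seq was performed on poly(A)-selected, strand-specific libraries of 24 frozen tissue samples.

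The AG group consisted of adrenal glands labelled CRE - (n = 3). AGM were adrenal glands with the genotype MYCN +/-, CRE + (n = 5), which had formed no tumor. TI were neuroblastoma tumors with the genotypes IGF2BP1 +/-, CRE + (1 sample) and IGF2BP1 +/+, CRE + (7 samples). TIM were neuroblastoma tumors with the genotype IMP1/MYCN, CRE + (n = 8), IMP1 being another name of IGF2BP1. The human transgenes were placed in the Rosa26 locus behind a stop cassette, which an iCRE under control of the Dbh promoter removes in noradrenergic cells, so other cell types of a gland or tumor do not carry the active transgene. The mouse genes Igf2bp1 and Mycn are not the transgenes, and their values therefore check no label.

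hnRNPs coat nascent transcripts and often repress the use of nearby splice sites, whereas SR proteins bind exonic enhancers through their RNA recognition motifs and recruit the splicing machinery through their arginine- and serine-rich domain. Both families also act in mRNA export, stability and translation. Many of these genes hold exons that trigger nonsense-mediated decay and thereby limit their own level, which gene-level values do not resolve. In neuroblastoma, proliferating neuroblasts of the sympatho-adrenal lineage make up most of a tumor, whereas an adrenal gland consists mainly of steroid-producing cortex.

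Levels are given as FPKM, that is, fragments scaled to the length of a gene and to the size of a library. Differences were fitted by limma on log2(FPKM + 1), with a false discovery rate (FDR) below 0.05 over all tested genes as the threshold. Libraries held 12334076 to 23683176 reads when the 126 genes with a value above 1000 FPKM anywhere were set aside, and none of the 30 genes was among these 126. The summed FPKM of 6 cortex markers ranged from 506 to 536 in AG and from 2372 to 3168 in AGM, and did not exceed 7.15 in any tumor. The 7 sympatho-adrenal markers summed to 129 to 185 FPKM in AG, whereas AGM had 1121 to 1883, TI 175 to 1526 and TIM 203 to 2761, and 3 of the 7 were higher in AGM than in AG. The 4 endothelial markers summed to 13.8 to 14.7 FPKM in AG, whereas AGM had 9.23 to 11.2, TI 1.90 to 17.7 and TIM 0.755 to 6.48. The 3 adipocyte markers reached 44.6 to 198 in AG and 72.4 to 209 in AGM but at most 11.8 in tumors. No marker was at 0 in all libraries of a group. In such bulk tissue, fewer cells of a type and less RNA per cell cannot be told apart, and the part of cell composition in the differences below was not tested. The 3 AG samples came from sequencing run 1 and the 5 AGM samples from run 2, while TIM came from runs 2 and 3, so a difference of either group from AG cannot be told apart from a difference between runs. Since 6 of 8 TI samples came from run 1 and no TIM sample did, TIM vs TI and run largely coincide as well.

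Promoter sequences were taken from RefSeq (GRCm38.p6) and covered 28 of the 30 genes, all but Hnrnpll and Hnrnpul2. The 250 bases before the transcription start were searched on both strands for 5 short motifs, of which GGGCGG and TTTCCCGC can share bases. The E-box letters CACGTG, which MYC family proteins can bind, were found in 3 of 28 promoters (10.7%), against 9.92% of the promoters of 8011 tested genes. These 3 are shown with the 6 letters in capitals.

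Hnrnpa3 (chr2:75659229-75659258, plus strand): cggatagcacatCACGTGgtgactggcccc

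Hnrnpd (chr5:99978953-99978982, minus strand): gcgctccggagcCACGTGaccgggacgcgc

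Hnrnpf (chr6:117907713-117907742, plus strand): cgagcgggcgctCACGTGgcccgaggcgcc

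TTTCCCGC, a motif of E2F factors that control cell cycle genes, was present in 4 of 28 promoters (14.3%) and in 2.1% of the promoters of tested genes. A window of each is shown because markers of cell proliferation are set beside the 30 genes below, with the motif (or its reverse complement) in capitals.

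Srsf1 (chr11:88047295-88047324, plus strand): cccgcggcgccTTTCCCGCcaaaggccgtt

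Srsf10 (chr4:135855998-135856027, plus strand): ccagagatctcGCGGGAAAaagccgttgtc

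Hnrnpr (chr4:136311370-136311399, plus strand): tcgcggtgcttTTTCCCGCctccgcccgcc

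Hnrnpul1 (chr7:25754953-25754982, minus strand): gcctctcgcctTTTCCCGCcctccactctg

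CCAAT was found in 15 of 28 promoters (53.6%, against 40.2% of tested genes), GGGCGG in 23 (82.1% against 65.3%) and TATAAA in 2 (7.14% against 7.94%). The median content of G and C was 68.0% in the 28 promoters and 60.0% in those of tested genes. The promoters of Hnrnpa1 and Srsf12 are shown whole, since these genes had the largest tumor differences of their families. Capitals mark CCAAT and GGGCGG or its reverse complement. The 4 CCAAT and 2 GGGCGG matches of Hnrnpa1 stand in a sequence of 46% G and C, whereas Srsf12 holds 1 GGGCGG match and no CCAAT in 68% G and C.

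Hnrnpa1 (chr15:103240147-103240396, plus strand): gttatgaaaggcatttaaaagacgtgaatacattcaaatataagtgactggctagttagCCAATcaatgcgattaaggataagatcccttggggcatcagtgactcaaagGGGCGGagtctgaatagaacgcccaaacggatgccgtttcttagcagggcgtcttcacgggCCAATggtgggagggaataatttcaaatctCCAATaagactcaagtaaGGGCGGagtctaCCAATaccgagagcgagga

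Srsf12 (chr4:33209022-33209271, plus strand): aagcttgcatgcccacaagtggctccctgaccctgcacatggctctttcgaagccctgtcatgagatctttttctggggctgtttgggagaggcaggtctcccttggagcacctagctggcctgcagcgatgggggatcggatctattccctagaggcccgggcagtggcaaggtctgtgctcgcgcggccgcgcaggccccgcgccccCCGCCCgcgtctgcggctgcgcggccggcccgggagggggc

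A sequence match is a description of these letters only and does not show binding of a factor.

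Across the set, mean FPKM was lowest in AGM for 28 of 30 genes and highest in TI for 27. In 17 genes the means rose in the order AGM, AG, TIM and TI, and in 9 the order was AGM, TIM, AG and TI. The same counts were not made over all tested genes, and the scaling of AGM and TIM is uncertain. Nothing particular to the set is therefore read from these orders. The summed FPKM of all 30 genes was 251 ± 4.87 (SD, n = 3) in AG, 136 ± 19.1 (n = 5) in AGM, 426 ± 77.4 (n = 8) in TI and 296 ± 96.0 (n = 8) in TIM. The sums of AG, AGM and TI did not overlap. TIM ranged from 129 to 407 and overlapped each of the other groups. The 5 most abundant genes held 44.2% of the summed mean FPKM in AG and 51.3% in TI, and Hnrnpa0, Hnrnpab and Hnrnpk were among these 5 in every group. Hnrnpa1 ranked 4th in AG, 11th in AGM, 2nd in TI and 3rd in TIM, and its part of the sum was 5.40%, 4.68%, 12.9% and 12.2%, respectively.

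In IGF2BP1 tumors compared to normal glands (TI vs AG), 12 of 30 genes were higher and 0 were lower, while 24.6% of all tested genes were higher and 27.7% lower. The 12 comprised 9 hnRNP and 3 SR genes, among them Srsf12, which passed the filter only through tumors. The median log2 difference of the 30 genes was 0.43, against 0.00 for all tested genes. In 13 genes every tumor exceeded every AG library and in 0 genes it lay below, which held for 23.8% and 27.3% of tested genes. At an unadjusted p below 0.05, 14 genes were higher and 0 lower.

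In TIM vs AG, 5 genes were higher and 1 was lower (22.5% and 28.5% of tested genes), with a median difference of 0.01. The 5 again included Srsf12. Groups did not overlap for 2 genes that were higher in TIM (17.8% of tested genes), Hnrnpa0 and Srsf12, and for 2 that were lower (24.7%), Srsf9 and Srsf10. The split depended on the scaling. When FPKM was recomputed from the reads outside the 126 high genes, 1 gene was higher and 2 were lower. Without AG library 1, 2 or 3 the number of higher genes was 3, 3 and 2.

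In MYCN-transgenic glands compared to normal glands (AGM vs AG), 16 genes were lower and 0 higher, whereas 14.0% of tested genes were lower and 14.6% higher. These were 13 hnRNP and 3 SR genes. The median difference was -0.71, and 27 genes were below every AG library in every AGM library (32.5% of tested genes), while Srsf12 alone lay above (29.4%). The call count rested on the small AG group, since it was 6, 7 and 7 without AG library 1, 2 or 3 and 8 without AGM library 5. With the recomputed FPKM 28 genes were lower, but there the median of all tested genes was itself -0.27 in AGM vs AG, against -1.06 for the 30 genes, and the calls over all genes went from 1488 higher and 1420 lower to 893 higher and 3589 lower.

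Among tumors, 13 genes were lower and 0 higher in TIM than in TI (12.9% and 10.0% of tested genes), 8 of them hnRNP and 5 SR genes. The median difference was -0.44. Only Hnrnpa3 showed no overlap between the 8 TIM and the 8 TI tumors, with TIM below TI (0.787% of tested genes, against 0.767% with TIM above). Without TI library 3, 8 genes were lower. With only the TI and TIM libraries in the fit, 6 were lower. With the recomputed FPKM 17 were lower, and the calls over all genes changed from 1017 higher and 1315 lower to 752 and 2029. TIM tumors were compared to AGM, which share the MYCN transgene, and 25 of 30 genes were higher and 0 lower (31.9% and 33.4% of tested genes). They were 19 of 20 hnRNP genes, all but Hnrnpf, and 6 of 10 SR genes. Hnrnpr and Srsf12 among them passed the filter only through tumors. The median difference was 0.65, and TIM lay above AGM without overlap for 5 genes and below for 0 (14.5% and 20.8% of tested genes). The 5 were Hnrnpa0, Hnrnpa1, Hnrnpd, Hnrnpul1 and Srsf12. With the recomputed FPKM 27 were higher, with a median of 0.87 against 0.22 for all tested genes and 4284 higher and 2588 lower calls in place of 3241 and 3398. The comparisons above share control or tumor samples and are not independent of each other.

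The tumor differences with and without the MYCN transgene were compared as (TIM vs AGM) minus (TI vs AG). The IGF2BP1 alleles and the sequencing runs differ between these tumors too, so this contrast does not single out MYCN. No gene of the set passed the threshold in limma, compared to 3.85% of tested genes above and 6.15% below 0. One gene, Hnrnph2, had an unadjusted p below 0.05, with a difference of 0.60 (95% confidence interval 0.12 to 1.07, FDR 0.107). For Hnrnpa1 the interval was -0.87 to 1.30 and for Srsf1 -0.87 to 1.04, so differences of that size could not be told from 0 with these samples.

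**Figure D1:**
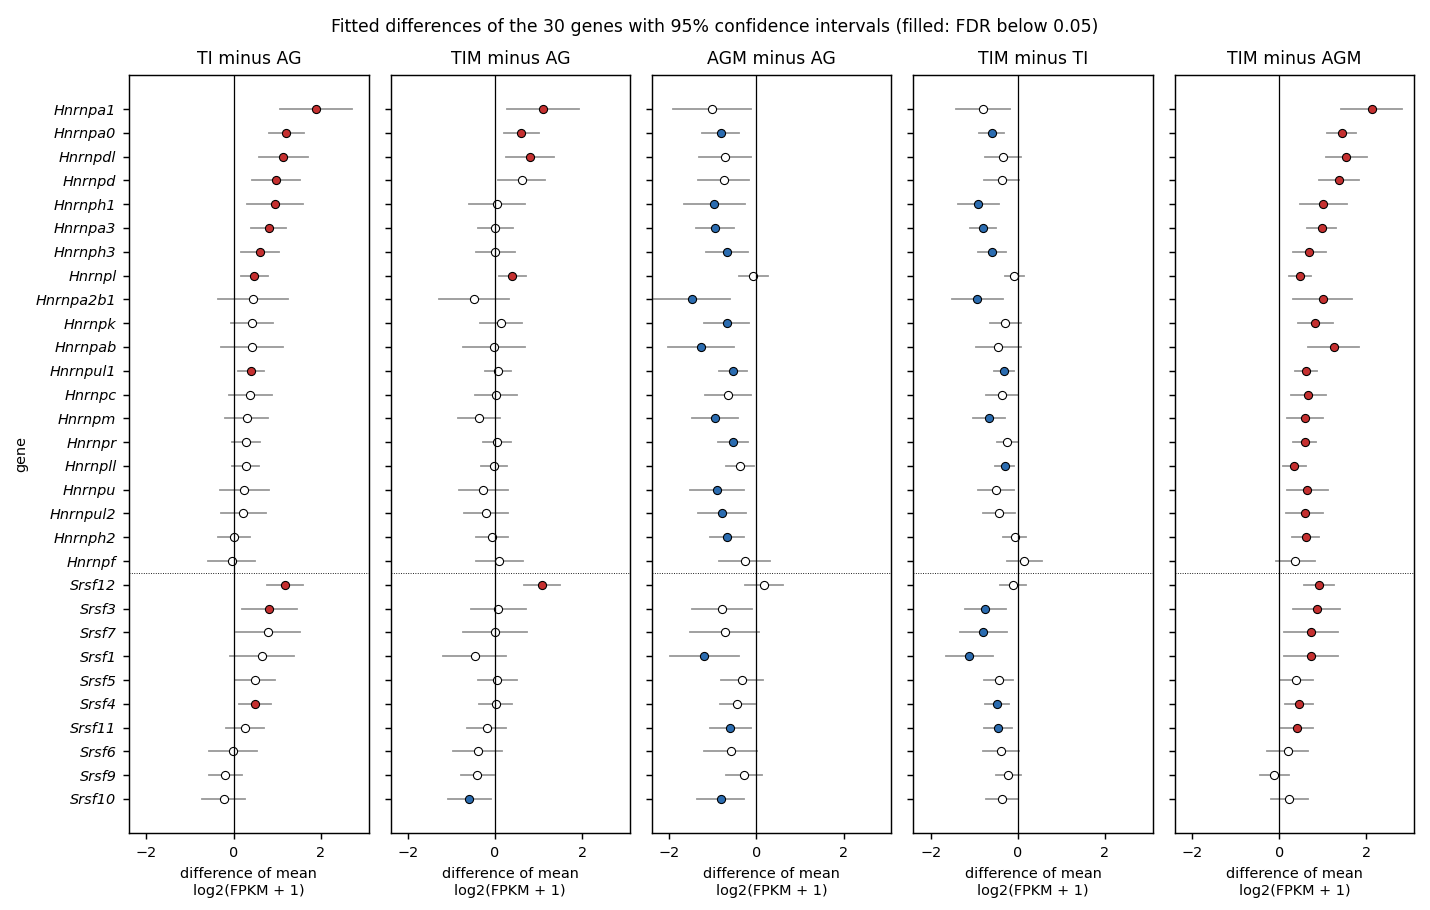
Fitted difference of mean log2(FPKM + 1) for each of the 30 genes (vertical axis) in 5 comparisons (panels), with 95% confidence intervals. Filled points passed an FDR of 0.05, red for higher and blue for lower. The filled points are red in TI vs AG (12) and TIM vs AGM (25) and blue in AGM vs AG (16) and TIM vs TI (13).

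The A/B-type hnRNPs carry a pair of RNA recognition motifs and a glycine-rich tail. Hnrnpa0, an intronless gene (chr13:58273693-58276370, GRCm39, minus strand) whose protein binds AU-rich elements, had 24.5, 24.7 and 26.9 FPKM in the AG libraries and 14.9, 12.7, 15.0, 14.5 and 12.4 FPKM in AGM. In TI it ranged from 49.3 to 91.3 with a median of 56.0, and in TIM from 28.0 to 54.3 with a median of 39.1. Both tumor groups lay above all glands, and AGM lay below AG. The log2 difference was 1.21 ± 0.19 (SE) in TI vs AG (FDR 1.57e-05), 0.60 ± 0.19 in TIM vs AG (FDR 0.0121), -0.83 ± 0.21 in AGM vs AG (FDR 0.00498), -0.60 ± 0.14 in TIM vs TI (FDR 0.0048) and 1.43 ± 0.16 in TIM vs AGM (FDR 8.75e-08). It was the only gene of the set past the threshold in all 5 comparisons.

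Hnrnpa1 (chr15:103148339-103155125, GRCm39, plus strand), the best studied splicing repressor of the family, had 13.7, 13.5 and 13.5 FPKM in AG and 6.86, 8.75, 6.47, 5.88 and 3.89 FPKM in AGM. It reached 37.9 to 74.5 FPKM in TI (median 52.6). TIM tumors ranged from 8.88 to 81.3 (median 30.2), the widest relative range of the set in that group, and the lowest TIM tumor was below AG. The TI vs AG difference of 1.90 ± 0.40 (FDR 0.000377) exceeded that of 97.1% of tested genes. TIM was higher than AG by 1.10 ± 0.40 (FDR 0.0256) and than AGM by 2.12 ± 0.34 (FDR 1.11e-05). AGM vs AG (-1.02 ± 0.43, FDR 0.0815) and TIM vs TI (-0.80 ± 0.30, FDR 0.0541) did not pass. Hnrnpa1 overlaps Cbx5 on the opposite strand, and the family has processed pseudogenes, so the assignment of reads between copies is uncertain.

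Hnrnpa3, a close relative of Hnrnpa1, had 3.51, 3.56 and 3.64 FPKM in AG and 1.49, 2.25, 1.09, 1.28 and 0.839 in AGM. TI tumors were tightly grouped at 6.43 to 7.79 (median 6.98; coefficient of variation 5.97%, the lowest of the 30 genes in TI). TIM tumors lay between 1.501 and 5.72 (median 3.58), below every TI tumor. It was higher in TI than AG (0.81 ± 0.19, FDR 0.00138), lower in AGM than AG (-0.96 ± 0.21, FDR 0.00148) and lower in TIM than TI (-0.80 ± 0.14, FDR 0.000576), with the smallest FDR of the set in the latter 2 comparisons. TIM and AG differed by 0.01 ± 0.19 (95% interval -0.40 to 0.41).

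The remaining A/B-type genes were Hnrnpa2b1, known for mRNA transport and as a reader of methylated adenosine, and Hnrnpab, a transcription and mRNA transport factor. Hnrnpa2b1 ranged from 22.4 to 23.6 FPKM in AG and fell between 4.86 and 11.2 in AGM, between 18.8 and 55.0 in TI and between 4.93 and 28.2 in TIM. Its AGM vs AG difference of -1.48 ± 0.42 (FDR 0.0109) was the most negative of the set, and it was lower in TIM than in TI (-0.93 ± 0.29, FDR 0.0232), while TI vs AG (0.44 ± 0.39, FDR 0.363) did not pass. Hnrnpab was likewise lower in AGM (12.2 to 16.5 FPKM) than in AG (34.1 to 36.6; FDR 0.0126). It was higher in TIM than in AGM (1.24 ± 0.29, FDR 0.000714), and did not pass in TI vs AG (0.42 ± 0.34, FDR 0.317).

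**Figure D2:**
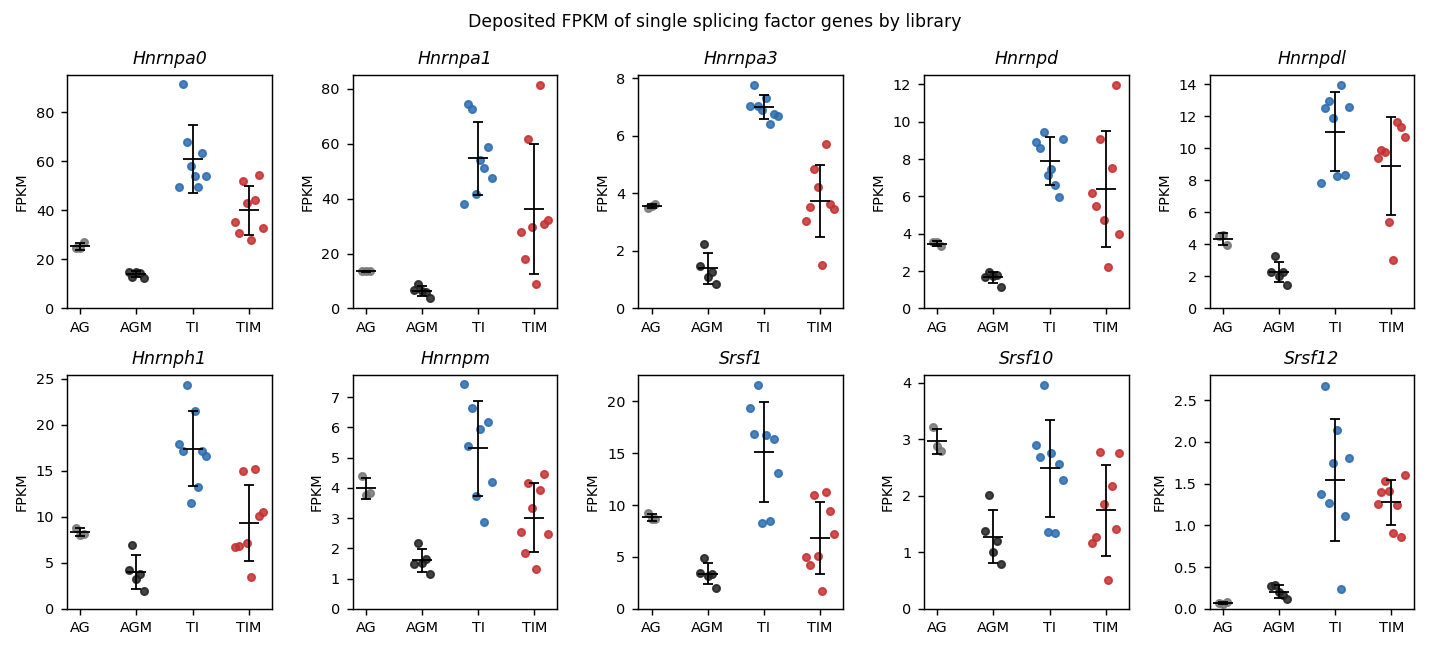
FPKM (vertical axis, starting at 0) of 10 genes in each library of AG (n = 3), AGM (n = 5), TI (n = 8) and TIM (n = 8). Points are libraries, with the mean and SD as bars. Hnrnpa0 tumors lie above all glands, Hnrnpa3 separates TI (6.43 to 7.79) from TIM (1.501 to 5.72), and Srsf10 is highest on average in AG.

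The D-type hnRNPs bind AU-rich elements of mRNAs with short half-lives. Hnrnpd, which encodes AUF1, had 3.55, 3.55 and 3.32 FPKM in AG and 1.70, 1.95, 1.75, 1.81 and 1.17 in AGM. TI tumors ranged from 5.95 to 9.46 (median 8.02), and TIM tumors from 2.19 to 11.98 (median 5.82). All TI tumors lay above AG, all TIM tumors above AGM. The difference was 0.98 ± 0.26 in TI vs AG (FDR 0.00331) and 1.36 ± 0.22 in TIM vs AGM (FDR 1.44e-05), whereas TIM vs AG (0.61 ± 0.26, FDR 0.0565) and AGM vs AG (-0.75 ± 0.28, FDR 0.0508) narrowly missed the threshold.

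Hnrnpdl, its neighbor on chromosome 5, had 4.51, 4.62 and 3.94 FPKM in AG and 2.27, 3.25, 2.06, 2.30 and 1.49 in AGM. It ranged from 7.85 to 13.99 in TI (median 12.2) and from 3.04 to 11.6 in TIM (median 9.84). A single TIM tumor lay below the AG libraries, and TI did not overlap AG. It was higher in TI (1.14 ± 0.27, FDR 0.00109) and in TIM (0.80 ± 0.27, FDR 0.0158) than in AG, and higher in TIM than in AGM (1.53 ± 0.23, FDR 4.06e-06). TIM vs TI did not pass for Hnrnpd (-0.37 ± 0.19, FDR 0.175) or Hnrnpdl (-0.34 ± 0.20, FDR 0.222).

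F/H-type hnRNPs recognise runs of guanines near splice sites, and the members of this family did not behave alike. Hnrnph1 had 8.79, 7.99 and 8.14 FPKM in AG and 4.18, 6.88, 3.25, 3.75 and 1.95 in AGM. Its level was 11.5 to 24.3 in TI (median 17.1) and 3.41 to 15.1 in TIM (median 8.59). TI lay above AG in all tumors and TIM straddled AG. It was higher in TI than AG (0.95 ± 0.31, FDR 0.0131) and lower in AGM than AG (-0.97 ± 0.34, FDR 0.0342) and in TIM than TI (-0.91 ± 0.23, FDR 0.00731). Hnrnph3 showed the same 3 calls with smaller differences (0.61, -0.68 and -0.60), with 2.82 to 3.2001 FPKM in AG and 4.30 to 7.77 in TI.

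The X-linked paralog Hnrnph2 had 3.45, 3.40 and 3.32 FPKM in AG and 1.76, 2.49, 1.83, 1.90 and 0.995 in AGM. TI (2.72 to 4.44, median 3.30) and TIM (1.66 to 4.75, median 3.26) overlapped AG and each other. Only the AGM difference (-0.67 ± 0.19, FDR 0.0107) and TIM vs AGM (0.61 ± 0.15, FDR 0.00116) passed, and TI vs AG was 0.01 ± 0.18 (95% interval -0.35 to 0.37). Hnrnpf passed in none of the comparisons, with 8.74 to 9.69 FPKM in AG, 5.99 to 8.67 FPKM in AGM, 7.13 to 15.0 FPKM in TI and 3.56 to 15.2 FPKM in TIM.

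Of the hnRNPs with other RNA-binding preferences, Hnrnpl and its paralog Hnrnpll bind CA repeats, and Hnrnpll is known for the splicing of Ptprc in T cells. Hnrnpl had 9.53, 9.07 and 9.23 FPKM in AG and 8.70, 8.35, 9.35, 8.55 and 8.87 in AGM, so the glands overlapped (-0.07 ± 0.16, FDR 0.774). TI tumors ranged from 11.5 to 18.0 (median 12.8) and TIM tumors from 8.20 to 17.0 (median 13.0). It was higher in both tumor groups than in AG (0.48 ± 0.15, FDR 0.00951, and 0.40 ± 0.15, FDR 0.0287), and TIM and TI differed by -0.08 (95% interval -0.31 to 0.15). Hnrnpll was low, with 1.01, 0.824 and 0.880 FPKM in AG, 0.467, 0.585, 0.501, 0.481 and 0.299 in AGM, 0.778 to 1.89 in TI (median 1.31) and 0.264 to 1.28 in TIM (median 0.926). It was lower in TIM than TI (-0.31 ± 0.11, FDR 0.0435), a call lost under 22 of 31 alternative settings, and higher in TIM than AGM (0.35 ± 0.12, FDR 0.017).

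Hnrnpm, which binds GU-rich RNA and acts in epithelial-mesenchymal splicing switches, had 4.38, 3.75 and 3.83 FPKM in AG and 1.49, 2.19, 1.52, 1.65 and 1.16 in AGM. It ranged from 2.89 to 7.42 in TI (median 5.68) and from 1.31 to 4.47 in TIM (median 2.94), and both tumor groups overlapped AG. It was lower in AGM than AG (-0.95 ± 0.25, FDR 0.00777) and in TIM than TI (-0.67 ± 0.17, FDR 0.00924). Hnrnpk, a poly(C)-binding protein with KH domains (13.1 to 14.3 FPKM in AG, 15.5 to 23.5 in TI), exceeded AG in every TI tumor without passing the test (0.43 ± 0.23, FDR 0.128). Hnrnpc, which binds uridine tracts, passed only in TIM vs AGM (0.67 ± 0.20, FDR 0.00559).

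The larger scaffold-type members were Hnrnpu, which tethers RNA to chromatin, its relatives Hnrnpul1 and Hnrnpul2, which take part in the DNA damage response, and Hnrnpr, a relative of Syncrip. All 4 were lower in AGM than in AG (-0.91, -0.54, -0.79 and -0.54, FDR 0.0242, 0.012, 0.0293 and 0.0175) and higher in TIM than in AGM. Hnrnpul1 alone was higher in TI than in AG (0.40 ± 0.15, FDR 0.0255), with 3.54 to 3.77 FPKM in AG and 4.69 to 6.38 in TI, and lower in TIM than in TI (-0.32 ± 0.11, FDR 0.0349).

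Among SR genes, Srsf1 (SF2/ASF), the prototype of the family and a known oncoprotein in other tumors, had 9.19, 8.66 and 8.61 FPKM in AG and 3.41, 4.87, 3.19, 3.34 and 2.02 in AGM. TI tumors ranged from 8.24 to 21.6 (median 16.6) and TIM tumors from 1.67 to 11.3 (median 6.12). Some TI tumors overlapped AG, and TI vs AG did not pass (0.65 ± 0.35, FDR 0.131). Srsf1 was lower in AGM than AG (-1.20 ± 0.38, FDR 0.0214) and in TIM than TI, where its difference of -1.12 ± 0.26 (FDR 0.00444) was the most negative of the set.

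Srsf3 and Srsf7, which also serve as adaptors for mRNA export, were alike in direction. Srsf3 had 4.47 to 4.56 FPKM in AG, 1.66 to 2.58 FPKM in AGM, 4.77 to 16.5 FPKM in TI and 1.57 to 9.79 FPKM in TIM, and was higher in TI than AG (0.82 ± 0.31, FDR 0.029) and lower in TIM than TI (-0.75 ± 0.23, FDR 0.0223). Srsf7 was lower in TIM than TI (-0.79 ± 0.26, FDR 0.0329), while TI vs AG (0.79 ± 0.36, FDR 0.0663) did not pass. Srsf4, Srsf5 and Srsf6 carry a second, atypical RNA recognition motif, as do Srsf1 and Srsf9. Srsf4 was higher in TI than AG (0.49 ± 0.18, FDR 0.0262) and lower in TIM than TI (-0.48 ± 0.13, FDR 0.013).

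Srsf5 (10.1 to 13.7 FPKM in AG, 11.8 to 25.3 in TI, 8.998 to 19.4 in TIM), Srsf6 (11.1 to 12.6, 6.62 to 19.5 and 3.56 to 13.0) and Srsf9 (8.76 to 9.15, 4.61 to 10.9 and 5.03 to 8.54) passed in no comparison, as did Hnrnpf. All 8 TIM tumors were below the AG libraries for Srsf9, with a difference of -0.41 ± 0.19 (FDR 0.0739). Srsf11 was lower in AGM than AG (-0.61 ± 0.23) just inside the threshold and lower in TIM than TI (-0.47 ± 0.16, FDR 0.0348). The AGM call of Srsf11 was lost under 23 of 32 alternative settings.

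Srsf10 and Srsf12 are related factors that can antagonise other SR proteins, Srsf10 when dephosphorylated after heat shock or in mitosis. Srsf10 had 3.21, 2.88 and 2.80 FPKM in AG and 1.38, 2.02, 0.998, 1.20 and 0.798 in AGM. TI tumors ranged from 1.35 to 3.97 (median 2.63) and TIM tumors from 0.505 to 2.78 (median 1.64), the latter below every AG library. It was lower in AGM than AG (-0.82 ± 0.26, FDR 0.0205), and it was the only gene lower in TIM than AG (-0.59 ± 0.24, FDR 0.0438), a call lost under 15 of 31 alternative settings.

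Srsf12 was the least abundant gene of the set in glands, with 0.0740, 0.0604 and 0.0778 FPKM in AG, which corresponded to 20 to 26 reads per library. AGM libraries had 0.274, 0.287, 0.198, 0.161 and 0.114 FPKM (30 to 83 reads). TI tumors ranged from 0.232 to 2.67 (median 1.56; 77 to 865 reads) and TIM tumors from 0.863 to 1.60 (median 1.33). Every tumor exceeded AG, and a single TI tumor fell within the range of AGM. The log2(FPKM + 1) difference, which understates the change of such a low gene, was 1.19 ± 0.20 in TI vs AG (FDR 2.78e-05), 1.08 ± 0.20 in TIM vs AG (FDR 8.94e-05) and 0.91 ± 0.17 in TIM vs AGM (FDR 6.53e-05). Srsf12 reached 1 FPKM in tumors only, so it passed the filter through the groups in which it was then called higher. These calls held under each of the 31 alternative settings that tested it, the fit without a filter included. Most of these settings only left out 1 library, and the filter of 1 FPKM in every library dropped Srsf12. Their agreement therefore does not remove this limit. The TIM vs TI difference was -0.11 (95% interval -0.41 to 0.20).

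A factor common to a library cancels in a ratio of related genes except through the added 1, which makes up nearly all of the Srsf12 term in AG (at most 0.0778 FPKM). For 8 pairs of related members, the log2 ratio of (FPKM + 1) was compared in 5 contrasts by two-sided exact permutation tests, and 7 of 40 tests passed after Benjamini-Hochberg adjustment over all 40 (adjusted p = 0.0346 each). The ratio of Srsf10 to Srsf12 was 1.89 ± 0.08 (SD, n = 3) in AG, 0.90 ± 0.21 in AGM, 0.48 ± 0.48 in TI and 0.22 ± 0.34 in TIM. It was lower than in AG by -1.41 in TI and -1.67 in TIM, with no overlap (exact permutation p = 0.00606, the smallest that 165 splits gave), and lower in TIM than AGM by -0.68 (exact permutation p = 0.00311). The ratio of Hnrnpa1 to Hnrnpa3 was 1.67 ± 0.03 in AG, 1.62 ± 0.15 in AGM, 2.77 ± 0.32 in TI and 2.77 ± 0.58 in TIM. It was higher by 1.09 in TI than AG (exact permutation p = 0.00606) and by 1.15 in TIM than AGM (exact permutation p = 0.00389), again with no overlap. TIM vs AG also differed by 1.09 without overlap but did not pass (adjusted p = 0.0808 in the exact permutation test).

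Hnrnph1 relative to Hnrnph2 was lower in TIM (1.19 ± 0.46) than in TI (2.02 ± 0.47) by -0.84 (exact permutation p = 0.00435), with 4 of 8 TIM tumors below every TI tumor. Hnrnpl relative to Hnrnpll was higher by 0.43 in TIM than AG (2.86 ± 0.16 and 2.43 ± 0.04; exact permutation p = 0.00606, in 8 of 8 tumors). The pairs Hnrnpd and Hnrnpdl, Hnrnpul1 and Hnrnpul2, Srsf3 and Srsf7, and Srsf4 and Srsf6 passed in no contrast. AGM vs AG could not go below p = 0.0179 with 56 splits in the exact test. Without any 1 AG library, 0 of the 40 ratio tests passed. This includes ratios in TIM vs TI and TIM vs AGM, whose libraries and unadjusted p did not change. Their adjusted p rose because the adjustment spans all 40 tests, to 0.058 in the exact permutation test for Hnrnph1 relative to Hnrnph2 in TIM vs TI. Without the added 1, the 3 differences of Srsf10 relative to Srsf12 were -4.54 in TI vs AG, -5.09 in TIM vs AG and -2.33 in TIM vs AGM. On that scale 6 of the 7 differences passed, and Hnrnpl relative to Hnrnpll did not (0.59, adjusted p = 0.223 in the exact permutation test).

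**Figure D3:**
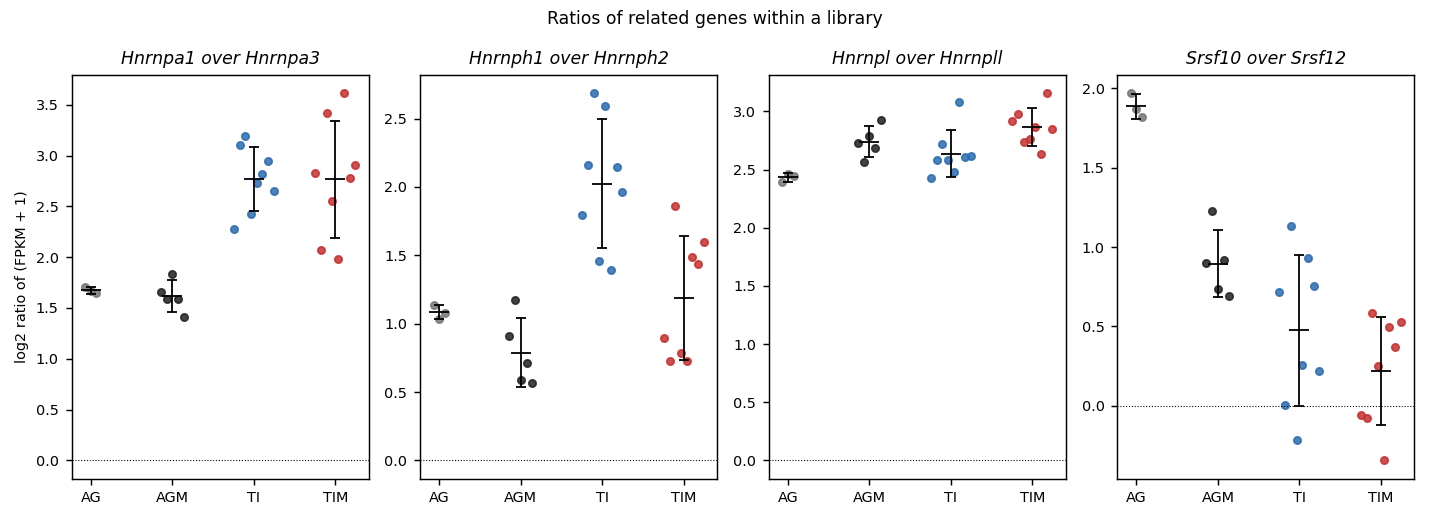
Log2 ratio of (FPKM + 1) of 4 pairs of related genes (vertical axis) in each library of AG, AGM, TI and TIM, with the mean and SD as bars. Hnrnpa1 over Hnrnpa3 separates glands (at most 1.84) from tumors (at least 1.98), and Srsf10 over Srsf12 is highest in AG (1.82 to 1.97).

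The 30 genes varied little among AG libraries and most among TIM tumors, with a median coefficient of variation of 4.86% in AG, 22.6% in AGM, 24.5% in TI and 37.6% in TIM. Genes of a library tended to move together in AGM and TIM and less so in TI. TIM library 5 was the lowest of its group in 27 of 30 genes (summed FPKM 129), and AGM library 5 in 27 (summed FPKM 106). TI library 3 was the highest of its group in 15 genes (summed FPKM 564). Over all 435 pairs of genes the median Pearson correlation was 0.79 across the 5 AGM glands, 0.71 across the 8 TIM tumors and 0.37 across the 8 TI tumors. It was positive in 84.1%, 97.9% and 76.3% of pairs, respectively. These values are a description since the points share depth and scaling. The same counts and correlations were not computed over all tested genes.

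TIM library 5, AGM library 5 and TI library 3 also stood apart in proliferation markers (Mki67, Top2a, Ccnb1, Bub1, Mcm2, Mcm5 and Pcna), while other libraries did not match. Their FPKM summed to 11.6 to 12.2 per AG library and 4.95 to 6.80 per AGM library. Tumors reached 11.3 to 91.4 (TI) and 2.15 to 54.8 (TIM). TIM library 5 had the lowest sum of all 24 libraries (2.15) and TI library 3 the highest (91.4), and AGM library 5 was the lowest of AGM (4.95). AGM library 2, the highest of its group in 20 of the 30 genes, had a marker sum of 5.96, below AGM library 3 (6.80). TIM library 6 had the highest summed FPKM of the 30 genes among TIM tumors (407) but a marker sum of 34.0, below TIM library 3 (54.8). TIM library 5 also had the highest sums among TIM tumors of sympatho-adrenal (2761), Schwann cell (20.0), adipocyte (11.8) and cortex (5.81) markers. In TI vs AG, 5 of these 7 markers were higher, with Top2a at 2.62 ± 0.57 (FDR 0.000493). In AGM vs AG 0 of 7 passed in limma (0 also at an unadjusted p below 0.05), and in TIM vs TI 1 was lower, Mki67 (-1.005 ± 0.23, FDR 0.00367). The part of proliferation and of these other cell types in the differences of the 30 genes was not tested. Without both TIM library 5 and AGM library 5, a choice made after seeing the values, 15 genes were higher in TI vs AG, 17 lower in AGM vs AG, 9 lower in TIM vs TI and 26 higher in TIM vs AGM. Of the genes with the letters TTTCCCGC shown above, Hnrnpul1 was higher in TI than in AG, and Srsf1, Srsf10 and Hnrnpr did not pass in that comparison. All of these genes were lower in AGM than in AG. Srsf1 and Hnrnpul1 were lower in TIM than in TI, where Srsf10 and Hnrnpr did not pass. In TIM vs AGM Srsf1, Hnrnpr and Hnrnpul1 were higher and Srsf10 did not pass, and in TIM vs AG only Srsf10 passed, as lower. The part of the motif in these differences was not tested.

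**Figure D4:**
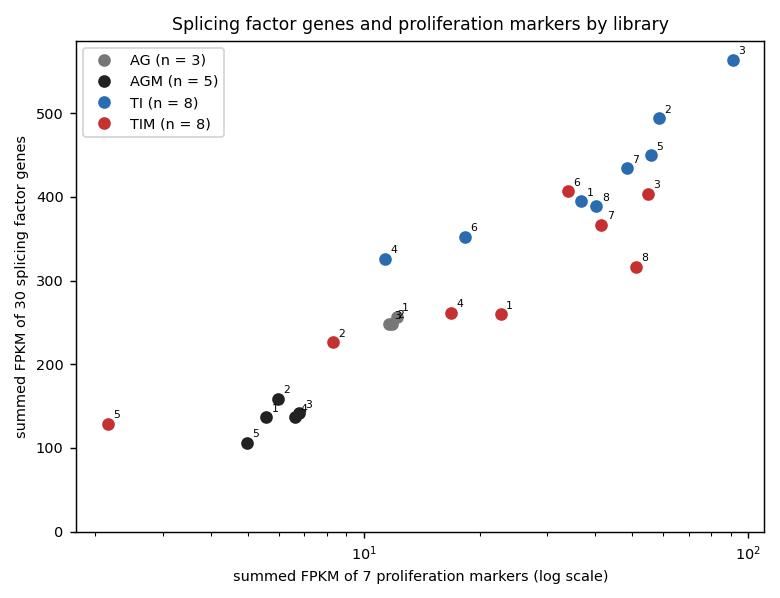
Summed FPKM of the 30 genes (vertical axis, starting at 0) against summed FPKM of 7 proliferation markers (horizontal axis, log scale) in 24 libraries, colored by group and numbered within a group. TIM library 5 (2.15 and 129) lies at the lower left and TI library 3 (91.4 and 564) at the upper right.

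Other parts of the splicing machinery were read from fixed lists, whose counts stand beside the shares of all tested genes given for each comparison above, and nothing particular to a list is read from them. Of 13 genes of the Sm ring and the snRNP core, 8 were higher in TI vs AG, 3 in TIM vs AG and 10 in TIM vs AGM, and 0 were lower in these. The neuronal and imprinted gene Snrpn had the largest difference, with 2.27 to 2.64 FPKM in AG and 15.7 to 36.4 in TI (2.70 ± 0.29, FDR 6.28e-08). In AGM vs AG 1 gene was lower, Snrpb2 (-0.76 ± 0.24, FDR 0.0206). In TIM vs TI 2 were lower, Snrpn (-0.62, FDR 0.0424) and Snrnp70 (-0.57, FDR 0.00459), the latter encoding a protein that SR factors contact at the 5' splice site.

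SR proteins are phosphorylated by kinases of the SRPK and CLK families, which control their location and activity, and are imported by transportin 3. Of 9 such genes, 1 was higher in TI vs AG, Srpk1 (0.64 ± 0.16, FDR 0.00145), which had 0.939 to 1.05 FPKM in AG and 1.16 to 2.77 in TI. In TIM vs TI 4 were lower, among them Srpk1 (-0.49 ± 0.12, FDR 0.0047) and Clk1 (-0.48 ± 0.12, FDR 0.00737). In TIM vs AG 2 were higher and 3 lower, and in TIM vs AGM 4 were higher and 1, Clk2, lower. Srpk2, Srpk3 and Tnpo3 passed the filter on low values only through tumors. In AGM vs AG 1 was lower, Prpf4b (-0.60 ± 0.15, FDR 0.00448).

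Of 12 genes of SR-related proteins, 3 were higher and 1 lower in TI vs AG (24.6% and 27.7% of all tested genes), 0 higher and 1 lower in TIM vs AG, 6 lower in AGM vs AG, 4 lower in TIM vs TI, and 6 higher and 1 lower in TIM vs AGM. Rsrc1 among the 12 passed the filter on low values only through tumors. Pnn, a component of nuclear speckles, was higher in TI than AG (1.10 ± 0.21, FDR 0.000137) and lower in TIM than TI (-0.91 ± 0.16, FDR 0.000392). Rsrp1 was lower in both tumor groups, with 21.4 to 26.4 FPKM in AG, 5.83 to 12.6 in TI and 7.24 to 12.1 in TIM (-1.21 and -1.25, FDR 2.28e-05 and 1.55e-05). Of 8 hnRNPs and relatives under other symbols, 4 were higher in TI vs AG, 4 in TIM vs AG and 5 in TIM vs AGM, with 0 lower in each. Cirbp, a cold-inducible RNA-binding protein, had the largest difference (1.56 ± 0.23 in TI vs AG, FDR 6.78e-06). In AGM vs AG, Pcbp1 was higher (0.51, FDR 0.0393) and Syncrip was lower (-0.70, FDR 0.00253). In TIM vs TI Pcbp1 was higher (0.52, FDR 0.00585), and Raly and Pcbp2 were lower.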

How the data were processed

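RNA-seq was performed on 24 mouse tissue samples. Per the labels and methods, the authors trimmed reads with cutadapt (2.8), aligned them with HISAT2 (2.1.0) to mm39, counted with featureCounts (2.0.0), corrected a batch effect with ComBat-seq and applied TMM normalization in edgeR (3.40). The annotation and the strand setting of counting are not given in the sources used here. The deposited FPKM table holds 21833 protein-coding genes with gene lengths. Deposited columns of log2 fold changes, p-values and FDR of AGM, TI and TIM against AG were not used. Columns were assigned to groups by name. They carry no number of a sample title, so sequencing runs could not be linked to libraries, and library numbers follow the column order.

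FPKM times length, divided by a step inferred for each library (an implied library size of 74712432 to 133535995), gave whole reads in 100.0% of values (tolerance 0.001). These reads are values after the authors' correction. Their totals per library differed with the groups compared: AG had 17434796 to 17893013 and TI 12468968 to 21353172, but AGM had 116740738 to 1170004708 and TIM 58530450 to 888626365. Outside 126 genes above 1000 FPKM in any library, all had 12334076 to 23683176. The scaling of AGM and TIM is therefore uncertain, and FPKM recomputed from the latter reads was an alternative. The implied library sizes also exceeded the recovered reads in AG (105270723 to 107302734) and in TI (74712432 to 127965738), for a reason that was not tested. Absolute FPKM, the filter at 1 FPKM and the added 1 therefore hold on the deposited scale only. Read numbers cover counting error only.

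Differences were fitted with limma (3.58.1, R 4.3.3; lmFit, eBayes with trend) to log2(FPKM + 1), using the 10171 genes that reached 1 FPKM in 3 or more libraries, with all 24 libraries in 1 fit without covariates and Benjamini-Hochberg adjustment over these genes. Within-library ratios were compared by exact permutation tests over all splits (Python 3.11.15). P-values measure the spread between these samples. Code was tested on simulated data. Alternatives were another pseudocount, filter, scaling, set of groups and voom, and leaving out libraries.

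Members and gene lists were chosen with earlier results of these data known. Full values are given for the 4 members with the smallest FDR per contrast and direction and for the members of ratio pairs that passed; other lists name at most 3 genes per direction. In 1 further case a row matching the name pattern was left out by the rule and is not reported here. Positions of genes are from GENCODE on GRCm39, and promoter positions from RefSeq on GRCm38.p6.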

Additional observations from a re-analysis of the deposited data

Results flagged for a closer look

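In 6 of 90 groups of libraries (30 genes in AGM, TI and TIM), 1 library lay far outside the others of its group by Dixon's criterion, where chance sets apart about 1 in 20. Of these, 5 were high values of TI library 2 or 3. TI library 2 had 91.3 FPKM of Hnrnpa0 (others 49.3 to 67.8), 7.77 of Hnrnph3 (others 4.30 to 5.83) and 12.6 of Srsf4 (others 5.31 to 8.53). TI library 3 had 15.0057 FPKM of Hnrnpf (others 7.13 to 8.83) and 18.0102 of Hnrnpl (others 11.5 to 14.0), and it also had the highest proliferation marker sum (91.4). TIM library 7 had 6.64 FPKM of Hnrnpul1 (others 2.49 to 4.07). No member passed the limma test of the difference between the tumor contrasts.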

How the results depend on the processing

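No direction of a called gene reversed under any alternative. Of 79 calls of single genes or ratios, 40 held under every alternative and 39 were lost under at least 1. For TIM vs AG, the 1 lower gene became 0 with a pseudocount of 0.1, without a filter, with at least 1 FPKM in every library, with only the groups of the contrast, with voom, with median-centred libraries and without both TIM library 5 and AGM library 5, and 2 with recomputed FPKM. The 5 higher genes became 2 with only the contrast's groups and 1 with recomputed FPKM. For AGM vs AG, the 16 lower genes became 9 with at least 1 FPKM in every library (23 members tested), 26 with only the contrast's groups (and 1 higher) and 28 with recomputed FPKM. For TIM vs TI, 13 lower genes became 6 with only the contrast's groups. The test of the difference between tumor contrasts gave 1 higher gene with recomputed FPKM and 1 without TIM library 5 and AGM library 5. Leaving out 1 library at a time gave 8 to 14 higher genes in TI vs AG, 2 to 6 higher and 0 to 2 lower in TIM vs AG, 6 to 22 lower in AGM vs AG, 8 to 16 lower in TIM vs TI, 19 to 27 higher in TIM vs AGM, 0 to 1 higher in the difference between tumor contrasts (1 without TIM library 5), and 0 to 9 ratio tests (0 without any AG library). Fewer AG libraries leave fewer splits for the ratios against AG, which through the joint adjustment also raised the adjusted p of ratios without AG samples. The cause of the other changes was not tested. Median-centring and leaving out both libraries were chosen after seeing the data. A pseudocount of 0.1 or 0 gave 8 ratio tests.

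No paired analysis was possible because the columns carry no number that links them to the sample titles. A quasi-likelihood test on recovered reads was planned and not run, since the deposited unit is FPKM. The 3 AG libraries limit every comparison with normal glands, and Srsf12 rests on 20 to 26 reads per AG library.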

Other observations

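Of 30 listed tissue-restricted splicing regulators, many of them neuronal, 24 passed the filter on low values. Elavl2, Elavl3, Elavl4, Rbfox1, Rbfox3, Nova1, Nova2, Ptbp2, Celf4, Celf5, Srrm3 and Srrm4 did so only through the tumors, so counts of calls over the list are not given. Elavl3, a neuronal RNA-binding protein, had 0.113 to 0.256 FPKM in AG and 0.144 to 0.249 FPKM in AGM, but 2.61 to 11.2 FPKM in TI and 3.07 to 9.33 FPKM in TIM. Since it passed the filter through the tumors, its values are given without a test. Celf3 was higher in TI (2.75 ± 0.21, FDR 1.14e-10) and TIM (3.18 ± 0.21, FDR 8.72e-12) than in AG, and also in AGM than in AG (1.17 ± 0.22, FDR 0.000385). Mbnl1, a regulator of the switch from fetal to adult splice forms, had 0.260 to 0.584 FPKM in TI, 0.244 to 0.618 in TIM and 3.67 to 3.87 in AG. Mbnl1 reached 1 FPKM in glands only, so it passed the filter through them and no test is given for it. In AGM vs AG, Khdrbs1 (-0.92, FDR 0.00326) and Qk (-0.88, FDR 1.62e-05) were lower.

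Between the tumor groups, Nova1, a neuronal regulator that binds YCAY motifs, had 1.56 to 4.91 FPKM in TI and 0.772 to 1.40 in TIM (-0.99 ± 0.12). Rbfox3, known as the neuronal marker NeuN, had 0.208 to 0.844 FPKM in TI and 0.0521 to 3.96 in TIM. Rbfox3 reached 1 FPKM in TIM tumors only, so it passed the filter through that group and no test is given for it. Nova1 was low in glands, with at most 0.0969 FPKM in AG and 0.158 in AGM. Its difference between the tumor contrasts (-1.04 ± 0.22) therefore largely repeats TIM vs TI and does not single out MYCN.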
